A study of Homo sapiens with 18 samples.

Results

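The transcriptomes of shNR4A2 and shNR4A3 THP-1 cells in the unstimulated state were compared directly, without the non-targeting line as an intermediary. Members were the 3 shNR4A2 control libraries and the 3 shNR4A3 control libraries, 6 of the 18 libraries of the series, and every gene of the table entered the comparison. The series holds THP-1 cells, cultured monocyte-like cells derived from a human leukaemia, carrying a short hairpin RNA against NR4A2 (shNR4A2), against NR4A3 (shNR4A3) or without a target (shNT), each without LPS (control) or with LPS at 2.5 µg/ml for 2 h. All 3 lines are stable lines kept under puromycin, with 1 line per hairpin label, so a difference between shNR4A2 and shNR4A3 is a difference between 2 lines as well as between 2 targets, and hairpin and line cannot be told apart. Cells of each group were kept in buffered medium in a gas chamber before RNA was taken, and LPS cells had the same handling with LPS added for the last 2 h. The comparison asks which transcripts separate cells depleted of one NR4A receptor from cells depleted of the other.

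NR4A1, NR4A2 and NR4A3 are orphan nuclear receptors encoded by immediate early genes. They act as transcription factors without a known classical ligand, bind DNA as monomers at an element called NBRE, and NR4A1 and NR4A2 can also pair with the retinoid X receptors. In monocytes and macrophages their transcripts are low at rest and are induced by inflammatory stimuli such as LPS, and the receptors are known for limiting inflammatory gene expression and for roles in the survival and maturation of monocytes.

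Read counts per gene summed to 23929138, 19004435 and 22046231 in shNR4A2 replicates 1 to 3 and to 17694355, 16566072 and 18039169 in shNR4A3 replicates 1 to 3, so each shNR4A2 library was deeper than each shNR4A3 library. Replicate 2 detected the fewest genes in both lines, 23968 in shNR4A2 and 23149 in shNR4A3, against 28407 or more and 26312 or more in the other libraries. The share of reads on mitochondrially encoded genes was 1.76%, 1.48% and 1.92% in shNR4A2 and 2.12%, 1.05% and 2.04% in shNR4A3, again with replicate 2 lowest in both. Of the 20 monocyte and myeloid markers, 19 had a mean of at least 1 TPM (a level per transcript length, scaled to the same total in every library) in both lines. Neutrophil elastase (ELANE), AZU1 and the monocytic transcription factors CEBPA and SPI1 were among the most abundant, while FCN1, a marker of mature monocytes, stayed under 0.1 TPM in both. Markers that define T cells (CD3D, CD3E, CD3G), erythroid cells (HBB) and epithelial cells (EPCAM, KRT14) were under 0.3 TPM in both lines. Other members of those marker lists were higher, with means of 5.26 and 2.18 TPM for TRAC, 2.37 and 2.83 TPM for CD5, 11.3 and 10.7 TPM for EPOR and 2.48 and 1.63 TPM for ESRP1 in shNR4A2 and shNR4A3, in that order.

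The targeted transcripts differed between the lines to unequal degrees. NR4A2 was at 1.82, 1.63 and 2.41 TPM in shNR4A2 libraries and at 2.51, 2.97 and 3.31 TPM in shNR4A3 libraries, against 4.16, 2.83 and 4.08 TPM in shNT, and in the fits against shNT shNR4A2 passed the test (log2 fold change -0.91, adjusted p = 0.0359) and shNR4A3 did not (-0.29, adjusted p = 0.494). The lines did not overlap, but the log2 fold change (shNR4A2 over shNR4A3 throughout) of -0.63 ± 0.24 (SE) did not pass edgeR's quasi-likelihood test after Benjamini-Hochberg adjustment (adjusted p = 0.223), and the exact two-sided permutation test gave p = 0.1, the smallest that 3 libraries against 3 allow. NR4A3 was at 0.707, 0.694 and 1.41 TPM in shNR4A2 libraries and at 0.158, 0.107 and 0.0315 TPM in shNR4A3 libraries, against 0.556, 0.693 and 0.512 TPM in shNT. It was higher in shNR4A2, with a log2 fold change of 3.15 ± 0.52 (adjusted p = 0.00462), on few reads, 106 over the 3 shNR4A2 libraries and 9 over the 3 shNR4A3 libraries. In the fits against shNT, shNR4A3 passed the test for NR4A3 (log2 fold change -2.47, adjusted p = 0.00767) and shNR4A2 did not (0.68, adjusted p = 0.292). NR4A1, which neither hairpin targets, was at 6.60, 8.10 and 5.89 TPM in shNR4A2 and 4.02, 8.37 and 5.10 TPM in shNR4A3, overlapping ranges with a log2 fold change of 0.20 ± 0.22 (adjusted p = 0.765). The partner receptor genes RXRA and RXRB, which were tested as well, did not pass the test.

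**Figure D1:**
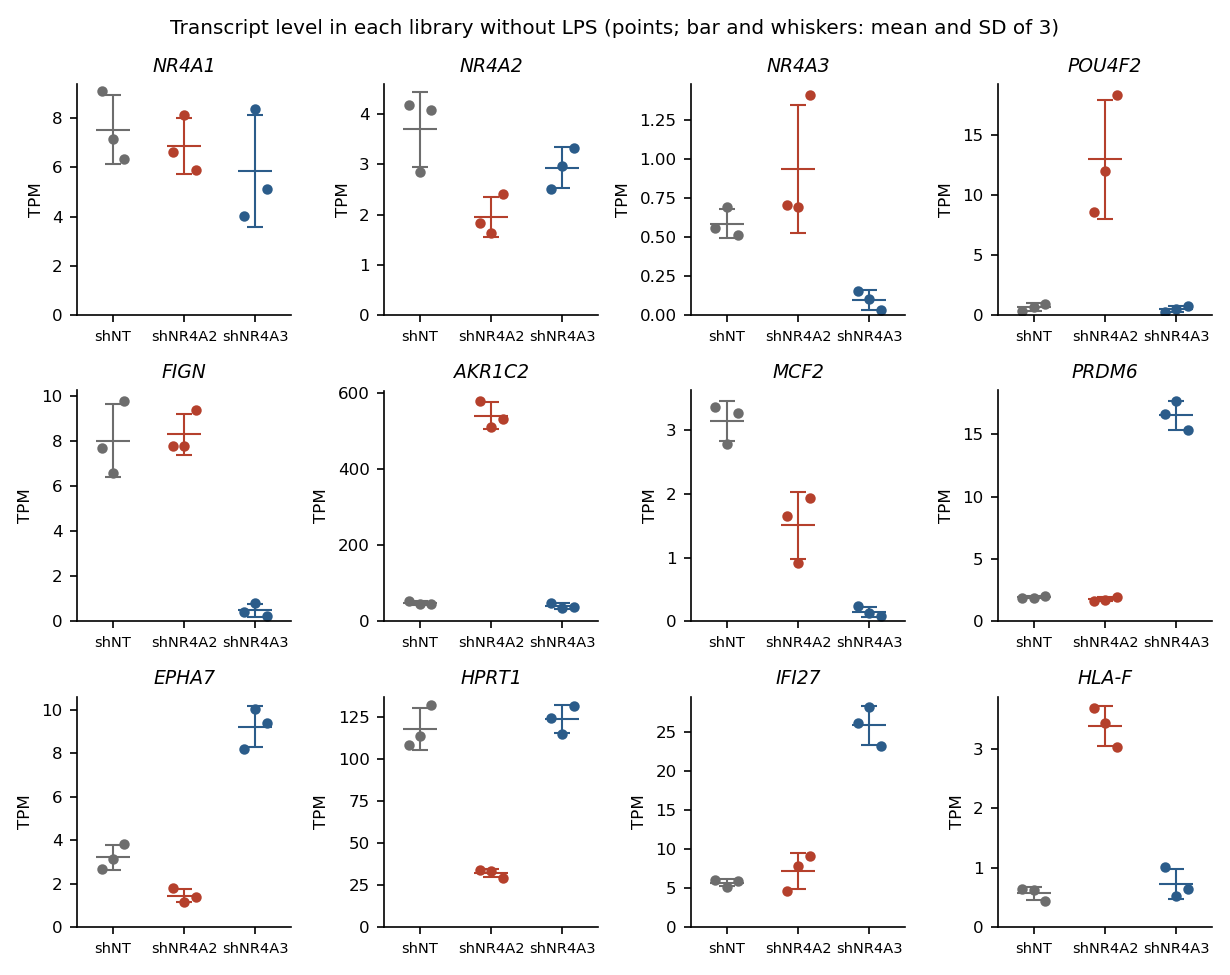
Transcript level in TPM (vertical axes, linear, each from 0) of 12 genes in the 3 unstimulated libraries of shNT (grey), shNR4A2 (red) and shNR4A3 (blue); points are libraries, bars and whiskers the mean and SD of 3. POU4F2, AKR1C2 and HLA-F stand out in shNR4A2, PRDM6, EPHA7 and IFI27 stand out in shNR4A3, and FIGN and HPRT1 are low in shNR4A3 and shNR4A2, respectively.

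Across the genome, the difference was lopsided in number. Of 15584 genes that passed the filter on low counts, 214 (1.37%) were called, which required both an adjusted p of less than 0.05 and a change of 2-fold or more, 168 higher in shNR4A2 (1.08%) and 46 higher in shNR4A3 (0.295%), by edgeR's quasi-likelihood test with Benjamini-Hochberg adjustment. Libraries of the 2 lines did not overlap for any of the 214, against 3042 of all genes tested (19.5%). Genes higher in shNR4A3 were fewer but more abundant, with a median of 19.2 TPM in the higher line against 4.45 TPM for genes higher in shNR4A2. Only 7 of the 168 and 8 of the 46 reached 100 TPM in the higher line. Differences of at least 4-fold numbered 37 among genes higher in shNR4A2 and 6 among genes higher in shNR4A3. Without a fold limit 480 genes (3.08%) were called, and 62.9% of them were higher in shNR4A2, against 78.5% with the 2-fold limit. With blocking on the replicate number, that count rose to 1800 genes (11.6%), with 6.04% of genes tested higher in shNR4A2 and 5.51% higher in shNR4A3, and without the block it was 249 without shNR4A3 replicate 1 and 251 without shNR4A3 replicate 3. Leaving out replicate 2 of both lines, a choice made after seeing the data, left 130 genes called at 2-fold, and a test against the 2-fold limit itself (glmTreat) called 24. In a principal component analysis of the 500 genes that varied most, component 1 (55.0% of variance) separated the lines, and on component 2 (22.0%) replicate 2 of both lines lay at the same end.

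**Figure D2:**
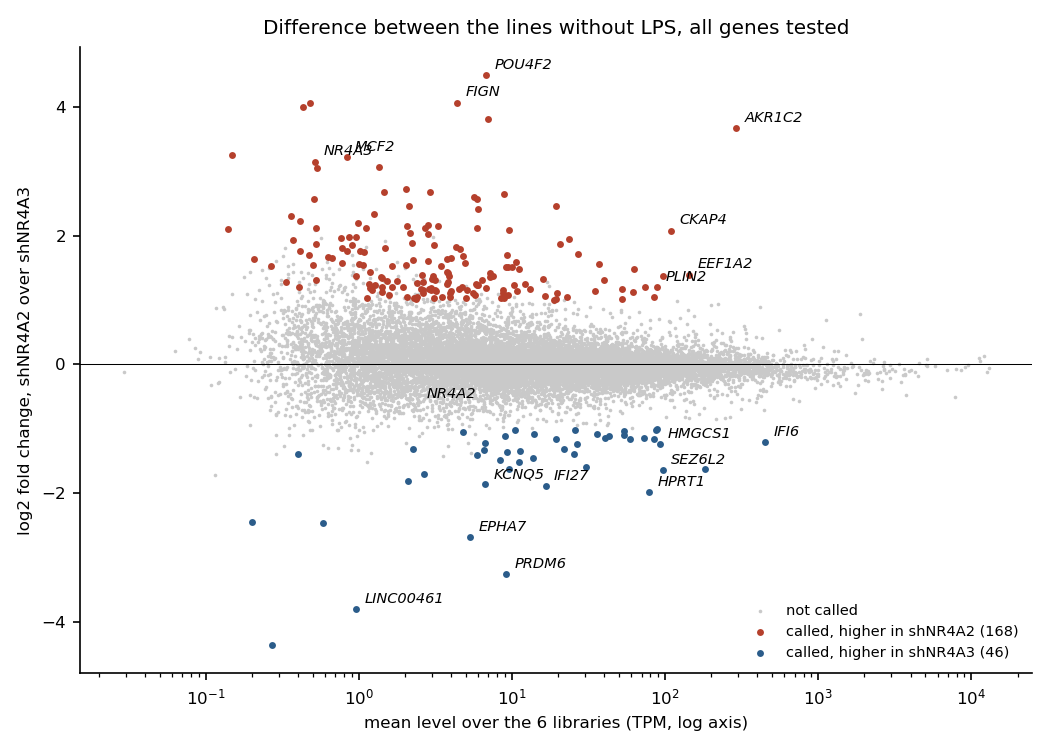
Log2 fold change of shNR4A2 over shNR4A3 (vertical axis) against the mean TPM over the 6 unstimulated libraries (horizontal axis, logarithmic) for 15584 genes; coloured points are called genes, 168 higher in shNR4A2 (red) and 46 higher in shNR4A3 (blue). Most large differences above 0 lie at low levels, with AKR1C2 and CKAP4 among the exceptions, whereas the most abundant blue point is IFI6.

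Among the genes higher in shNR4A2, POU4F2 had the largest fold change. This gene encodes a POU-domain transcription factor known from retinal ganglion cells. It stood at 8.61, 12.01 and 18.3 TPM in shNR4A2 libraries and at 0.317, 0.504 and 0.823 TPM in shNR4A3 libraries, a 22.5-fold difference (log2 fold change 4.49 ± 0.36, adjusted p = 3.06e-05). In shNT it was at 0.335, 0.728 and 0.968 TPM, so shNR4A2 was the line that stood apart. FIGN, which encodes the microtubule-severing protein fidgetin, showed the other arrangement. Its level was 7.77, 7.78 and 9.35 TPM in shNR4A2 and 0.401, 0.819 and 0.240 TPM in shNR4A3 (16.8-fold, adjusted p = 5.80e-06), with shNT at 7.70, 6.60 and 9.76 TPM, next to shNR4A2. MCF2, known as the DBL proto-oncogene, had levels that did not overlap among the 3 lines. It was at 1.66, 0.916 and 1.94 TPM in shNR4A2, at 0.239, 0.136 and 0.0797 TPM in shNR4A3 (9.37-fold, adjusted p = 0.00184), and at 3.38, 2.79 and 3.27 TPM in shNT, above both.

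The strongest test result of the whole comparison belonged to AKR1C2, an aldo-keto reductase that reduces steroid hormones. Its level was 580, 510 and 534 TPM in shNR4A2 against 49.2, 35.7 and 37.7 TPM in shNR4A3, 12.8-fold (log2 fold change 3.68 ± 0.15, adjusted p = 4.17e-08), and 53.4, 45.7 and 45.1 TPM in shNT. The antisense transcript AL391427.1 lies on chromosome 10 (GRCh38, 4995488 to 4997380), inside AKR1C2 (4987400 to 5018031) on the opposite strand, and had a log2 fold change of 3.81 ± 0.58. Whether counting used strand is not given in the sources used here, so its reads cannot be separated from those of AKR1C2. AKR1C2 also has near-identical neighbours, and reads may be split among them. Other genes higher in shNR4A2 by 5.93-fold to 8.44-fold were PRG2, the eosinophil major basic protein, TCEAL2, the elongation factor gene TCEA3, USH1C, which encodes the scaffold protein harmonin, the cell surface gene IGLON5, the serine protease gene HTRA3, and FRG2. PRG2 and TCEAL2 rested on few reads and lost the call when single libraries were left out (PRG2 at an adjusted p up to 0.0812 without shNR4A3 replicate 1 or 3, TCEAL2 up to 0.0707 without shNR4A2 replicate 2 or shNR4A3 replicate 1 or 3). FRG2 belongs to a family of near-identical copies and is uncertain for that reason.

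By level, AKR1C2 was followed by EEF1A2, a translation elongation factor of neurons and muscle, with 195, 247 and 184 TPM in shNR4A2 and 69.6, 89.2 and 72.7 TPM in shNR4A3 (2.63-fold, adjusted p = 0.00014). CKAP4, an endoplasmic reticulum membrane protein that also serves as a surface receptor, was at 140, 219 and 174 TPM in shNR4A2 and 32.2, 52.6 and 38.3 TPM in shNR4A3 (4.23-fold, adjusted p = 5.21e-05). Its shNT level, 381, 404 and 392 TPM, lay above both lines, as it did for C3orf80. C3orf80 (2.60-fold) and the lipid droplet gene PLIN2 (2.30-fold) completed the 5 most abundant genes higher in shNR4A2. PLIN2 was not called when all 18 libraries were fitted together.

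Among genes higher in shNR4A3 with at least 1 TPM there, the long non-coding RNA LINC00461 had the largest fold change. It was at 1.78, 2.05 and 1.52 TPM against 0.150, 0.185 and 0.0533 TPM in shNR4A2 (log2 fold change -3.81 ± 0.38, adjusted p = 0.000143). PRDM6, a PR-domain transcriptional repressor known from smooth muscle, was at 16.6, 17.7 and 15.3 TPM in shNR4A3 and 1.63, 1.75 and 1.97 TPM in shNR4A2 (9.55-fold, adjusted p = 4.58e-08). With shNT at 1.92, 1.87 and 2.05 TPM, shNR4A3 stood alone for PRDM6. The ephrin receptor gene EPHA7 was at 8.21, 10.0 and 9.40 TPM in shNR4A3 and 1.80, 1.18 and 1.41 TPM in shNR4A2 (6.45-fold, adjusted p = 5.80e-06), with shNT between the lines at 2.69, 3.16 and 3.83 TPM.

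HPRT1, the purine salvage enzyme that is widely used as a reference gene, was at 34.0, 33.5 and 29.7 TPM in shNR4A2 and 125, 115 and 132 TPM in shNR4A3 (3.95-fold, adjusted p = 5.67e-06). shNT libraries stood at 108, 114 and 132 TPM, so the low line was shNR4A2. Of the 14 housekeeping control genes HPRT1 was the one that was called, against 0.295% of all genes called higher in shNR4A3. ACTB and GAPDH had log2 fold changes of 0.05 ± 0.09 and -0.09 ± 0.10. SEZ6L2, a membrane protein gene expressed in brain, behaved like HPRT1, with 43.8, 54.6 and 45.1 TPM in shNR4A2, 143, 156 and 135 TPM in shNR4A3, and 149, 159 and 157 TPM in shNT. IGFBP7, a secreted protein that binds insulin-like growth factors, was called in the same direction but with shNR4A3 as the line apart, at 246, 307 and 266 TPM against 82.2, 109 and 82.3 TPM in shNR4A2 and 62.4, 72.4 and 59.5 TPM in shNT. The remaining genes of this size were 2.86-fold to 3.64-fold higher in shNR4A3: the potassium channel gene KCNQ5, the BMP antagonist NOG, AC106786.1, the sestrin gene SESN3 and METRN. For KCNQ5 the shNT libraries, at 15.2, 14.9 and 18.5 TPM, lay above both lines. AC106786.1 is an antisense transcript that overlaps PRDM6 (chromosome 5, 123087248 to 123090299 against 123089121 to 123194266), so without strand its reads cannot be separated from those of PRDM6. NOG lost the call without shNR4A2 replicate 1 or 3 or shNR4A3 replicate 2 (adjusted p up to 0.0691).

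Promoter sequences from RefSeq (GRCh38.p14, 250 bases before to 50 after a start site) were found for 10698 of the 15584 genes tested, 103 of the 168 called higher in shNR4A2 and 37 of the 46 called higher in shNR4A3. Less than 80% of the tested genes had one, so the motif search across the called genes is void as a comparison and is given as a description. The NBRE, AAAGGTCA on either strand, was in the promoters of 128 genes (1.20%) and of none of the called genes with a promoter. Its overlapping 7-letter forms were in 349 genes (AAAGGTC, 3.26%) and 401 genes (AAGGTCA, 3.75%). Among called genes with a promoter, AAAGGTC was in 2 of 103 higher in shNR4A2 (1.94%) and 1 of 37 higher in shNR4A3 (2.70%), and AAGGTCA in 3 of 103 (2.91%) and 0 of 37. Promoters were searched one by one for the called genes alone. Of those named here, 3 hold these letters, and they are shown for that reason, with the letters in capitals on the strand of the gene. They belong to SESN3 (chr11:95232426-95232725, minus strand), USH1C (chr11:17533836-17534135, minus strand, 1 of its 2 listed promoters) and C3orf80 (chr3:160225172-160225471, plus strand).
SESN3: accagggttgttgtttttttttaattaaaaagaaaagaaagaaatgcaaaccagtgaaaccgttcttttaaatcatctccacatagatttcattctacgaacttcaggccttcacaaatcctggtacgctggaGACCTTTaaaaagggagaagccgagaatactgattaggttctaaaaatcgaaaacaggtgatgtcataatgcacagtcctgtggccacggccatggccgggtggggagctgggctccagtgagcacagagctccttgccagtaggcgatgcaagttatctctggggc
USH1C: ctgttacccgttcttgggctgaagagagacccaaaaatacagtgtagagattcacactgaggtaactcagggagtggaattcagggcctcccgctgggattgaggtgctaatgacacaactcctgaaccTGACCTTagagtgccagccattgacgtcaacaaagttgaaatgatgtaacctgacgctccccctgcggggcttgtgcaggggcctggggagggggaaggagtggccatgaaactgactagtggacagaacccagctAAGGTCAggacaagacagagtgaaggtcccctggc
C3orf80: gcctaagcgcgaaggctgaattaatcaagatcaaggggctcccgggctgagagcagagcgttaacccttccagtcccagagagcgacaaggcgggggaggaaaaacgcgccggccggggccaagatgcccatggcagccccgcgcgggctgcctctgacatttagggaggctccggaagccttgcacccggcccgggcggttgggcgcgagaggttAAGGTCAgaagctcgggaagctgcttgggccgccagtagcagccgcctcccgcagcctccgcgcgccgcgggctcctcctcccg

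The 3 unstimulated shNT libraries gave each gene a reference level. In its own fit against shNT, shNR4A2 had 344 of 15800 genes called (2.18%) and shNR4A3 had 282 of 15322 (1.84%). These fits share the shNT libraries, so their values are given side by side and no overlap between them is read as a result. The genes counted next were chosen on the same shNR4A2 and shNR4A3 libraries, so the counts are a description and not a test. Of the 168 genes higher in shNR4A2, 168 were tested in the shNR4A2 fit and 147 in the shNR4A3 fit. Of the 46 higher in shNR4A3, 41 and 46 were tested, in that order. A gene not tested in a fit is counted below as not called in it. Among the 168 genes higher in shNR4A2 than in shNR4A3, 62 were called higher in shNR4A2 than in shNT, 46 were called lower in shNR4A3 than in shNT, and 61 were called in neither fit. The mean shNT level lay between the lines for 117 of them. Among the 46 genes higher in shNR4A3, 17 were called lower in shNR4A2 than in shNT, 13 were called higher in shNR4A3, and 17 were called in neither, with the shNT mean between the lines for 32. Some genes far from shNT in both lines did not pass the test between them. HUNK, a protein kinase gene, was at 0.223, 0.391 and 0.278 TPM in shNR4A2 and 0.409, 0.355 and 0.216 TPM in shNR4A3, against 2.05, 2.86 and 3.67 TPM in shNT, and the difference between the lines was -0.20 ± 0.39 in log2 (adjusted p = 0.891). IGSF10, an immunoglobulin superfamily gene, had log2 fold changes of -2.66 in shNR4A2 and -2.96 in shNR4A3 against shNT and 0.30 ± 0.34 between the lines. NCAM1, a neural cell adhesion molecule, had log2 fold changes of 2.99 and 2.54 against shNT. The difference of 0.45 ± 0.19 between the lines did not pass the test (adjusted p = 0.284), though it did with the replicate block (adjusted p = 0.00317) and without the filter on low counts (adjusted p = 0.0362). The matrix protein gene CTGF followed the same pattern, at -1.31 and -1.95 against shNT, 0.63 ± 0.23 between the lines (adjusted p = 0.186) and an adjusted p of 0.028 with the block.

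Of 22 tested targets of the oxidative stress regulator NRF2 and aldo-keto reductases, 5 were called, all higher in shNR4A2, against 1.08% of all genes. Fitted values were above 0 for 19 of the 22, and the median log2 fold change was 0.35, against 0.0009 over all genes tested. Beside AKR1C2 these were OSGIN1, an oxidative stress growth inhibitor, the cystine transporter gene SLC7A11, and the reductases AKR1C1 and AKR1C3. OSGIN1 was at 31.4, 42.0 and 50.4 TPM in shNR4A2 and 11.3, 10.9 and 14.3 TPM in shNR4A3 (3.28-fold, adjusted p = 0.000192). SLC7A11 was at 117, 73.7 and 120 TPM in shNR4A2 and 38.5, 43.2 and 49.2 TPM in shNR4A3 (2.30-fold, adjusted p = 0.00113). AKR1C1 and AKR1C3 were 2.86-fold and 2.60-fold higher in shNR4A2 and share sequence with AKR1C2, so 3 of the 5 called members may share reads. Without the fold limit 7 members were called, all higher in shNR4A2 (1.94% of all genes), and 12 with the replicate block, under which 6.04% of all genes were called in that direction.

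The 2 called class I antigen presentation genes went in opposite directions. HLA-F, a non-classical class I gene, was at 3.69, 3.42 and 3.03 TPM in shNR4A2 and 1.01, 0.521 and 0.642 TPM in shNR4A3 (4.45-fold, adjusted p = 0.00116), whereas ERAP1, the aminopeptidase that trims peptides for class I, was at 16.7, 13.7 and 17.8 TPM against 30.9, 41.3 and 38.5 TPM (2.36-fold higher in shNR4A3, adjusted p = 0.000168). In shNT, HLA-F was at 0.647, 0.623 and 0.438 TPM and ERAP1 at 38.7, 35.8 and 40.9 TPM, so shNR4A2 stood apart for both. No other of the 22 members was called, where 1.08% of all genes were called higher in shNR4A2 and 0.295% higher in shNR4A3. The median log2 fold change of the 22 was 0.17. HLA-C was at 431, 413 and 342 TPM in shNR4A2 and 295, 280 and 246 TPM in shNR4A3, a log2 fold change of 0.49 ± 0.12 that passed the test without the fold limit (adjusted p = 0.048). HLA-B, at 732, 705 and 560 TPM against 509, 455 and 374 TPM, did not (0.53 ± 0.14, adjusted p = 0.0616). HLA-B did pass by DESeq2 (adjusted p = 0.0131), without the filter on low counts (0.000115), without shNR4A2 replicate 3 (0.0202) and with the replicate block (0.000204). With the block 8 members were called higher in shNR4A2 and 1 higher in shNR4A3 without a fold limit, against 2 and 1 without it, and the shares over all genes with the block were 6.04% and 5.51%. HLA-C did not pass with RLE normalization, with all 18 libraries or when any 1 of 5 of the 6 libraries was left out (adjusted p up to 0.238). Class I genes are close paralogues, and reads may be shared among them. None of 16 class II genes was called, and with the block 1 was called higher in shNR4A3 without a fold limit. HLA-DRA, an alpha chain of class II, stood at 26.7, 18.8 and 15.3 TPM in shNR4A2 and 23.7, 17.3 and 17.4 TPM in shNR4A3 (log2 fold change 0.01 ± 0.23), and the beta chain gene HLA-DRB1 had a log2 fold change of 0.29 ± 0.12.

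Interferon-stimulated genes were higher in shNR4A3 where they were called. IFI27 was at 26.1, 28.2 and 23.2 TPM in shNR4A3 and 4.60, 7.86 and 9.08 TPM in shNR4A2 (3.72-fold, adjusted p = 0.000225), with shNT at 6.06, 5.17 and 5.92 TPM. IFI6, a mitochondrial survival factor, was at 548, 717 and 590 TPM in shNR4A3 and 152, 337 and 340 TPM in shNR4A2 (2.31-fold, adjusted p = 0.0122), with shNT at 398, 464 and 501 TPM, between them. These were the 2 called members of 42, against 0.295% of all genes called higher in shNR4A3, and no member was called higher in shNR4A2. With single libraries left out, the log2 fold change of IFI6 ran from -1.39 to -0.91, so 2-fold was not kept throughout (adjusted p up to 0.033). The median log2 fold change over the list was -0.22, and 7 of 42 members had a fitted value above 0. With the replicate block 11 members were called without a fold limit, all higher in shNR4A3, against 3 without it. The share of all genes called in that direction with the block was 5.51%.

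**Figure D3:**
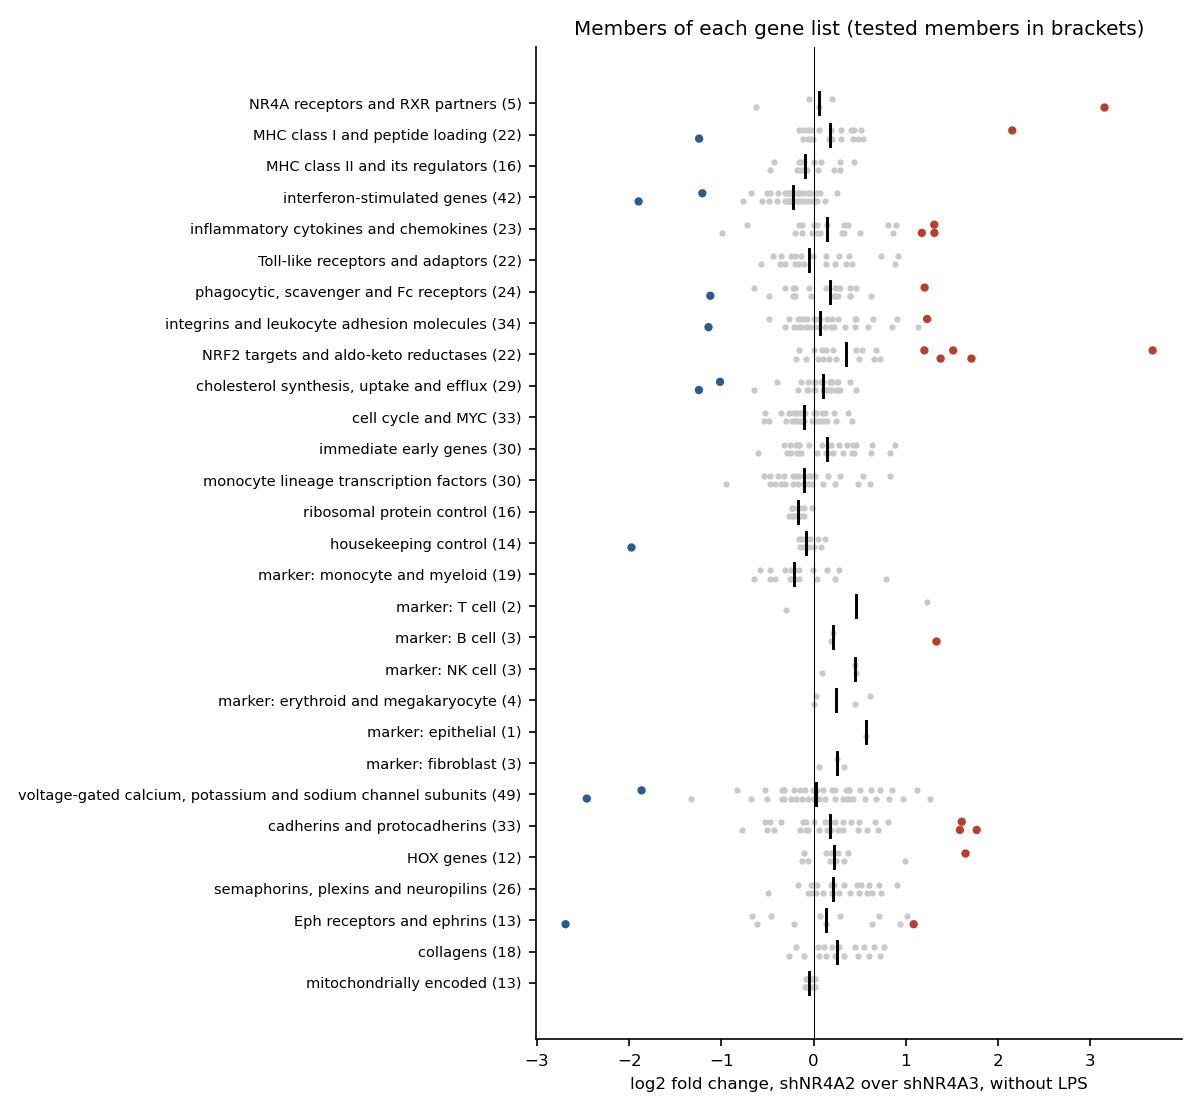
Log2 fold change of shNR4A2 over shNR4A3 without LPS (horizontal axis) for the tested members of each gene list described (rows, number tested in brackets); coloured points are called members, red higher in shNR4A2 and blue higher in shNR4A3, and black bars are list medians. Called members of the NRF2, cytokine and cadherin lists lie to the right of 0 and those of the interferon-stimulated, cholesterol and channel lists to the left.

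Inflammatory cytokines and chemokines had 3 called members of 23, all higher in shNR4A2, where 1.08% of all genes were called in that direction, and a median log2 fold change of 0.15. TNF was at 55.5, 96.8 and 65.4 TPM in shNR4A2 and 19.3, 39.8 and 35.2 TPM in shNR4A3 (2.26-fold, adjusted p = 0.0208). CCL2, a chemokine that draws monocytes, was at 9.30, 10.1 and 7.95 TPM in shNR4A2 and 3.41, 3.42 and 3.81 TPM in shNR4A3 (2.48-fold, adjusted p = 0.00501). For both genes shNT lay with shNR4A2, at 72.3, 71.9 and 51.6 TPM for TNF and 14.6, 9.12 and 8.62 TPM for CCL2. CSF1, the growth factor of macrophages, was also called (2.48-fold, adjusted p = 0.0436). TNF lost the call without shNR4A3 replicate 1 (adjusted p = 0.0688), CSF1 when any 1 of 4 of the 6 libraries was left out (adjusted p up to 0.158), and CCL2 in the fit of all 18 libraries. Named after their values were seen, CCL5 and IL1B were also higher in shNR4A2 and OSM (oncostatin M) higher in shNR4A3 at less than 2-fold. OSM had a log2 fold change of -0.99 ± 0.25 (adjusted p = 0.0493) and did not pass when any 1 of 5 of the 6 libraries was left out (adjusted p up to 0.151). CCL5 stood at 548, 545 and 539 TPM against 279, 281 and 293 TPM (log2 fold change 0.89 ± 0.09, adjusted p = 0.000204) and IL1B at 35.6, 28.0 and 33.5 TPM against 17.5, 18.05 and 18.3 TPM (0.80 ± 0.13, adjusted p = 0.0043).

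Receptors and adhesion molecules gave single genes in both directions. In the list of 24 phagocytic, scavenger and Fc receptors the inhibitory Fc receptor FCGR2B was higher in shNR4A2 (6.66, 5.70 and 7.64 TPM against 3.30, 2.21 and 2.84 TPM, adjusted p = 0.00406), and the scavenger receptor CD36 was higher in shNR4A3 (15.03, 8.70 and 12.4 TPM against 6.39, 3.68 and 7.24 TPM, adjusted p = 0.0229). Each was the 1 called member in its direction, against 1.08% of all genes higher in shNR4A2 and 0.295% higher in shNR4A3. CD36 lost the call without shNR4A3 replicate 1 or 3 (adjusted p up to 0.104). Its shNT level, 2.64, 1.71 and 2.73 TPM, lay below both lines. Of 34 integrins and adhesion molecules 1 was called in each direction, where 1.08% and 0.295% of all genes were. ITGA6 was 2.35-fold higher in shNR4A2, and ITGA4, an alpha chain that binds VCAM1, 2.20-fold higher in shNR4A3. Leaving out single libraries moved the log2 fold change of ITGA6 between 0.84 and 1.42, so 2-fold was not kept throughout. Without a fold limit 4 members were called higher in shNR4A2 and 1 higher in shNR4A3 (1.94% and 1.14% of all genes). With the replicate block as well, these counts were 8 and 3 (6.04% and 5.51% of all genes). None of 22 Toll-like receptor and adaptor genes was called, and TLR7, at 0.916, 0.586 and 1.01 TPM against 0.880, 0.869 and 1.07 TPM, had a log2 fold change of -0.21 ± 0.30. The replicate block without a fold limit called 2 members of this list higher in shNR4A2 and 3 higher in shNR4A3. Among cadherins, PCDH7 (3.00-fold), DSC3 (3.05-fold) and CDH15 (3.41-fold) were higher in shNR4A2, 3 of 33, against 1.08% of all genes tested. CDH15 rested on few reads, and its call was lost whichever library was left out (adjusted p up to 0.172). Of 13 ephrin receptors and ephrins 1 was called in each direction (1.08% and 0.295% of all genes), EPHB1 2.12-fold higher in shNR4A2 and EPHA7 higher in shNR4A3. EPHB1 did not keep 2-fold throughout when single libraries were left out (log2 fold change from 0.94 to 1.22). Of 49 voltage-gated channel subunits, KCNQ5 and CACNA2D1 were called, both higher in shNR4A3 (0.295% of all genes). The median of this list was 0.02, and 29 of the 49 were on average higher in shNR4A2, opposite to the called genes. With the replicate block and no fold limit, 3 were called higher in shNR4A2 and 5 higher in shNR4A3. CACNA2D1, a calcium channel subunit, was at 0.708, 1.21 and 1.04 TPM in shNR4A3 and 0.102, 0.212 and 0.237 TPM in shNR4A2 (5.50-fold, adjusted p = 0.0022).

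Of 29 genes of cholesterol synthesis, uptake and efflux, HMGCS1, which makes the substrate of the rate-limiting step, and SC5D, a late enzyme of the pathway, were called, both higher in shNR4A3 (0.295% of all genes). HMGCS1 was at 108, 152 and 125 TPM in shNR4A3 and 54.2, 56.8 and 56.1 TPM in shNR4A2 (2.37-fold, adjusted p = 8.07e-05), and SC5D differed by 2.02-fold. For SC5D the log2 fold change ran from -1.15 to -0.91 with single libraries left out, so 2-fold was not kept throughout. The median of the pathway list was 0.10, and 20 of the 29 had a fitted value above 0, opposite to both called enzymes.

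No member of the cell cycle (33 tested), immediate early (30), monocyte lineage transcription factor (30), mitochondrially encoded (13), ribosomal protein (16), semaphorin and plexin (26) or collagen (18) lists was called at 2-fold. Of 12 HOX genes 1 was, HOXB7 (3.11-fold higher in shNR4A2, adjusted p = 0.0201), against 1.08% of all genes called in that direction. HOXB7 lost the call without shNR4A2 replicate 1 or 2 or shNR4A3 replicate 3 (adjusted p up to 0.0815). Without the fold limit, SEMA3F, SEMA6A and the immediate early gene ATF3 passed, all higher in shNR4A2 at log2 fold changes of 0.60, 0.63 and 0.88. In the same fit 4 of the 30 lineage transcription factors passed, all higher in shNR4A3. Over all genes 1.94% passed higher in shNR4A2 and 1.14% higher in shNR4A3. The semaphorins, ATF3 and these transcription factors were named after their values were seen. Neither semaphorin passed when any library was left out, and ATF3 did not without shNR4A2 replicate 1 or shNR4A3 replicate 1 or 3 (adjusted p up to 0.0925). MYC, a growth regulator that is also in the cell cycle list, stood at 359, 401 and 356 TPM in shNR4A3 and 254, 265 and 272 TPM in shNR4A2 (log2 fold change -0.54 ± 0.09, adjusted p = 0.00627) and did not pass in the fit of all 18 libraries, and ID2, ID3 and LMO2, which no longer passed without at least 3 of the 6 libraries taken singly, had log2 fold changes of -0.42, -0.95 and -0.47. CEBPA, a driver of myeloid differentiation, was at 912, 1119.8 and 804 TPM in shNR4A2 and 1121, 1281 and 1009.6 TPM in shNR4A3. Its log2 fold change of -0.31 ± 0.13 did not pass the test (adjusted p = 0.306), but did with the replicate block (adjusted p = 0.00893) or without shNR4A2 replicate 2 (adjusted p = 0.0495). All 16 ribosomal protein genes had a fitted value under 0, with a median of -0.16. With the replicate block and no fold limit, where 6.04% of all genes were called higher in shNR4A2 and 5.51% higher in shNR4A3, the members called higher in shNR4A2 and in shNR4A3 numbered 0 and 6 for ribosomal protein genes, 8 and 2 for immediate early genes, 2 and 6 for cell cycle genes, 4 and 7 for lineage transcription factors, 5 and 1 for collagens, and 5 and 1 for semaphorins and plexins. For HOX genes these counts were 2 and 0, and for mitochondrially encoded genes 0 and 0. Immediate early genes had a median of 0.14, cell cycle genes of -0.10, lineage transcription factors of -0.10, collagens of 0.26, semaphorins and plexins of 0.22, HOX genes of 0.22 and mitochondrially encoded genes of -0.05.

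Few markers of other cell types were called, and in bulk RNA fewer cells of a type and less RNA per cell cannot be told apart. Over the 19 tested monocyte and myeloid markers the median log2 fold change was -0.21 and none was called. Their summed level was 9986, 14003 and 10859.7 TPM in shNR4A2 and 12194, 14035 and 11793 TPM in shNR4A3, with ELANE the most abundant. ELANE and AZU1 had log2 fold changes of -0.47 ± 0.15 and -0.25 ± 0.16 that did not pass the test (adjusted p = 0.131 and 0.534). Both passed with the replicate block (0.000885 and 0.0381) and without shNR4A2 replicate 2 (0.00453 and 0.0389), and ELANE also without the filter on low counts (0.00109). With the block and no fold limit, 5 of the 19 markers were called higher in shNR4A3 and 1 higher in shNR4A2. The shares over all genes were 5.51% and 6.04%. Of 8 B cell markers 3 were tested, and PAX5, a B-lineage transcription factor, was called, at 3.17, 4.96 and 4.88 TPM in shNR4A2, 0.918, 2.23 and 1.90 TPM in shNR4A3 and 4.97, 6.51 and 7.46 TPM in shNT. PAX5 was the 1 called member, where 1.08% of all genes were called higher in shNR4A2. The call was lost without shNR4A3 replicate 1 (adjusted p = 0.0516). MS4A1, a defining B cell marker, was under 0.1 TPM in both lines, and summed B cell markers ran from 12.6 to 15.97 TPM in shNR4A2 and from 9.82 to 12.2 TPM in shNR4A3. Of 10 T cell markers 2 were tested, and 1 of them had a fitted value above 0. CD5 had a lower mean in shNR4A2 than in shNR4A3. Summed T cell markers ran from 7.61 to 10.0 TPM in shNR4A2 and from 5.78 to 7.002 TPM in shNR4A3. TRAC, a T cell receptor gene and the most abundant of them in shNR4A2, had a log2 fold change of 1.23 ± 0.31 at an adjusted p of 0.0545, or 0.0138 with the replicate block, 0.0129 without the filter on low counts and 0.00844 in the fit of all 18 libraries. None was called of the 3 NK cell, 4 erythroid and megakaryocyte, 1 epithelial and 3 fibroblast markers that could be tested, of 9, 12, 8 and 10 listed, and NKG7, EPOR, ESRP1 and TWIST1 were the most abundant of each list. The part of these markers in the differences between the lines was not tested.

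The same 2 lines were compared with LPS in 6 other libraries. There 149 of 15539 genes (0.959%) were called at 2-fold, 105 higher in shNR4A2 and 44 higher in shNR4A3, and the count was 379 with the replicate block. It was 61 or 75 when shNR4A3 LPS replicate 1 or 3 was left out and 97 when shNR4A2 LPS replicate 1 was. Both comparisons called 106 genes, all in the same direction, which is 49.5% of the calls without LPS and 71.1% of the calls with LPS. Of the 168 genes higher in shNR4A2 without LPS, 161 were tested with LPS, 158 had the same direction and 75 were called again. Of the 46 genes higher in shNR4A3, 45 were tested, all 45 had the same direction and 31 were called again. Over all 14932 genes tested in both states, 72.3% had the same direction. With LPS, POU4F2 was at 4.56, 6.36 and 6.09 TPM in shNR4A2 and 0.294, 0.283 and 0.213 TPM in shNR4A3, and its log2 fold change of 4.40 lay next to the 4.49 without LPS. PRDM6 likewise kept its difference, at -3.43 with LPS and -3.26 without.

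**Figure D4:**
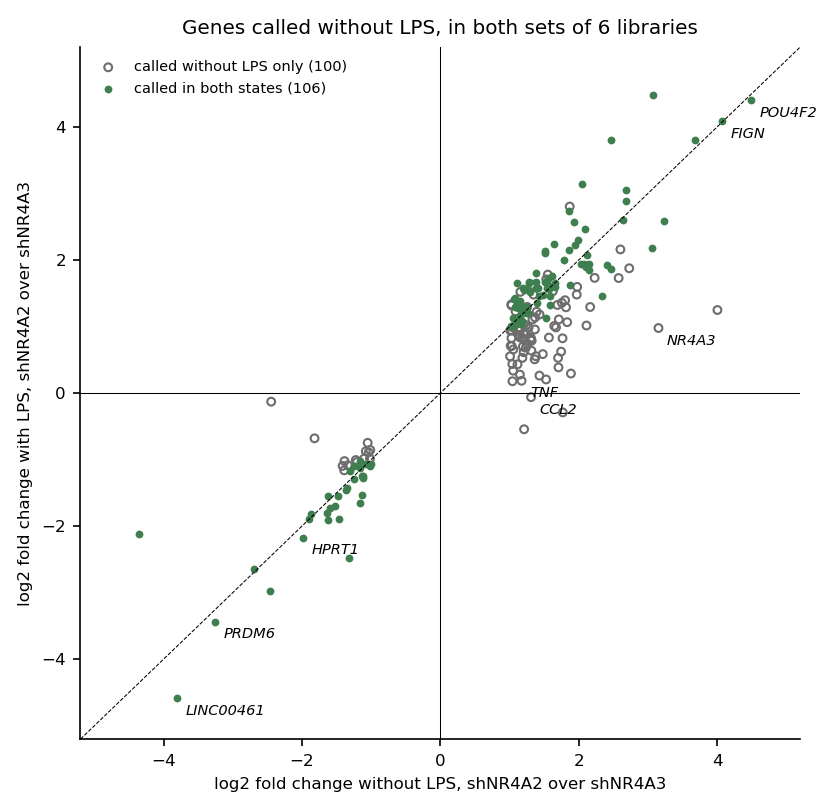
Log2 fold change of shNR4A2 over shNR4A3 with LPS (vertical axis) against that without LPS (horizontal axis) for the 206 called genes tested in both states; filled points were called at 2-fold in both (106), open points without LPS alone (100), and the dashed line marks equal values. Most points lie along the line, with TNF, CCL2 and NR4A3 below it.

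Several genes lay away from equality. The targeted transcripts were much more abundant with LPS, and NR4A2 was then called, at 20.5, 28.3 and 14.8 TPM in shNR4A2 and 41.8, 60.7 and 38.3 TPM in shNR4A3 (log2 fold change -1.15 ± 0.21, adjusted p = 0.0352). NR4A3 with LPS was at 33.0, 32.8 and 36.1 TPM in shNR4A2 and 17.03, 18.2 and 16.7 TPM in shNR4A3, a log2 fold change of 0.98 ± 0.10 (adjusted p = 0.00238). CCL2 with LPS was at 105.6, 56.0 and 69.2 TPM in shNR4A2 and 111, 55.6 and 73.7 TPM in shNR4A3, overlapping ranges (log2 fold change -0.06 ± 0.32). TNF with LPS was at 2223, 2130 and 2026 TPM and 1964, 1712 and 1929 TPM (0.18 ± 0.11). The difference between states was tested as an interaction of line and LPS over the 12 libraries. None of 16447 genes was called by edgeR's quasi-likelihood test with Benjamini-Hochberg adjustment. By the same test 396 had an unadjusted p under 0.05, which is less than a share of 0.05 of the genes tested. DESeq2 called 1 gene (AL663070.1), and edgeR without the filter on low counts called 29. The interaction had an unadjusted p of 0.000393 for NR4A3, 0.00725 for CCL2, 0.00491 for TNF and 0.123 for NR4A2, and none passed after adjustment.

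Position along the chromosomes showed a run of neighbouring genes that were slightly higher in shNR4A3. Tested genes were cut into 301 consecutive blocks of 50 by start position, and 3 adjoining blocks on chromosome 17 (GRCh38, 6640758 to 19378182) had the lowest medians, -0.30, -0.35 and -0.27. Of their 150 genes, 130 had a fitted value under 0, and the median log2 fold change of -0.30 is a 1.24-fold difference. Of the 150, 8 were called without a fold limit, all higher in shNR4A3, where 1.14% of all genes were called in that direction, and 1 was called at 2-fold. It was chosen after the block values were seen and has no test. Relative to the mean of the shNT libraries, the median log2 CPM (counts scaled to library size, with 1 added) of these genes was 0.21, 0.25 and 0.25 in the 3 shNR4A3 control libraries and 0.00, 0.06 and -0.02 in the 3 shNR4A2 control libraries. Each shNR4A3 library therefore lay above each shNR4A2 library and above the shNT libraries, which ran from -0.02 to 0.04. The libraries with LPS, set against shNT with LPS, repeated the pattern, at 0.12, 0.27 and 0.22 in shNR4A3 and -0.11, -0.03 and -0.07 in shNR4A2, and 119 of 141 tested genes were lower in shNR4A2. Leaving out each library in turn gave medians from -0.32 to -0.27. A second run of 100 genes on chromosome 5 (14664664 to 56505072) had a median of -0.23 without LPS and -0.14 with LPS, less evenly over libraries, at 0.03, 0.03 and 0.14 in shNR4A3 and -0.10, -0.20 and 0.01 in shNR4A2. The shNT libraries ran from -0.05 to 0.09 there and overlapped both lines. Of the 100 genes, 3 were called higher in shNR4A2 and 6 higher in shNR4A3 without a fold limit (1.94% and 1.14% of all genes). At 2-fold, 2 were called in each direction (1.08% and 0.295% of all genes). All 296 other blocks had medians between -0.14 and 0.17.

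**Figure D5:**
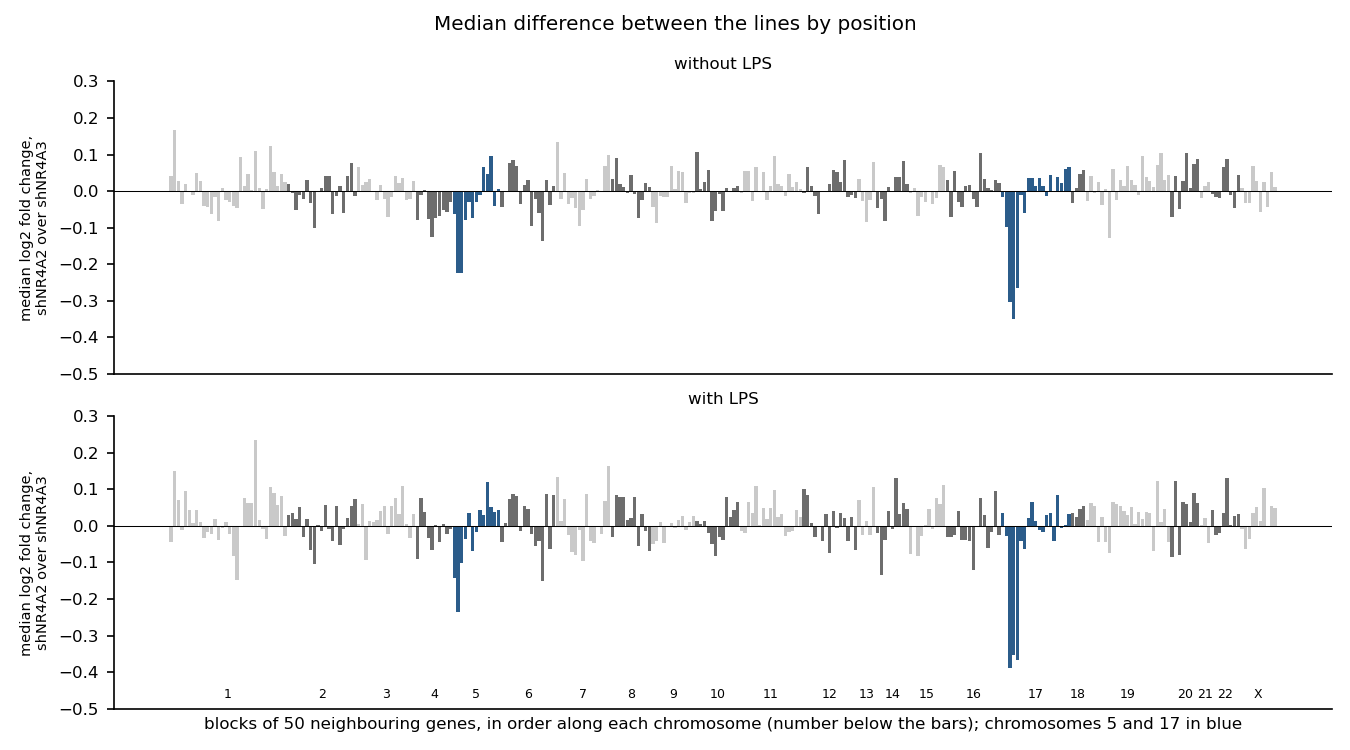
Median log2 fold change of shNR4A2 over shNR4A3 (vertical axes) of 301 blocks of 50 neighbouring tested genes, in order along each chromosome (horizontal axis, block order), without LPS (upper panel) and with LPS (lower panel); chromosomes 5 and 17 are blue. The 3 lowest blocks of both panels are the same adjoining blocks of chromosome 17, at -0.30, -0.35 and -0.27 without LPS.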

How the data were processed

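Libraries were polyA-selected and sequenced in pairs. Per the labels, the authors deposited 1 table of raw read counts per gene and library, with no normalization, and the submitters' processing notes name Trimmomatic 0.36, STAR 2.5.2b, featureCounts of Subread 1.5.2 and GRCh38. Strand use and the treatment of multi-mapping reads are not given in the sources used here. The deposited tables also hold a gene length, which was used for TPM. Replicates are described by the study as independent experiments. Symbols came from GENCODE 29, which held 56898 of the 57500 identifiers.

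Counts of the 6 control libraries were fitted with edgeR 4.0.16 in R 4.3.3 (filterByExpr with a minimum count of 10, TMM, quasi-likelihood F test, Benjamini-Hochberg adjustment over all genes tested). Calls required an adjusted p of less than 0.05 with a change of 2-fold or more. Standard errors were derived from the F statistic. The LPS libraries, the interaction and the comparisons with shNT had fits of their own. No 2 libraries held identical values. Samples with the same replicate number deviated together, with correlations of 0.274, 0.432 and 0.293 for numbers 1 to 3 without LPS, and were taken as paired for the alternative with a replicate block. The fit was tested on simulated data and recovered 94% of 200 genes changed by 1.5 in log2 among 15584 genes. Alternatives were DESeq2 1.42.0, its RLE size factors, no filter, all 18 libraries, the block and leaving out each library. Totals per library set the counting error, which weighs most on genes with few reads.

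Named genes were NR4A1 to NR4A3, in each direction the 12 called genes of largest fold change with at least 1 TPM and the 5 of highest level, up to 6 called members per list, the 2 most abundant members where fewer than 2 were called, and genes the study discusses. Others are marked as named after their values were seen. Members and lists were chosen with earlier results of these data known. Results for 1 gene list and 1 marker are not reported here.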

Additional observations from a re-analysis of the deposited data

How the results depend on the processing

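The 214 genes called without LPS became 447 with a 1.4-fold limit, 24 with glmTreat, 130 without replicate 2 of both lines (chosen after seeing the data) and 150 to 201 with single libraries left out. DESeq2 gave 195, RLE size factors 212, all 18 libraries 239, no filter 307 and the replicate block 308. By adjusted p, 74 of the 168 genes higher in shNR4A2 lost the call in at least 1 fit with a library left out. Of the 46 genes higher in shNR4A3, 9 did. Without a fold limit the 480 genes became 838 without the filter, 1800 with the block, 259 without replicate 2 of both lines and 249 to 470 with single libraries left out. The 149 genes called with LPS became 327 without the filter, 379 with the block, 268 with all 18 libraries, 81 without replicate 2 of both lines and 61 to 117 with single libraries left out. The interaction called 1 gene by DESeq2 and 29 without the filter. The first principal component held 68.5% of the variance after a variance-stabilizing transformation and 37.9% over all genes past the filter. The causes of these shifts were not tested.

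Without a fold limit, the block added calls for CEBPA, ELANE, AZU1, TRAC, NCAM1, CTGF, COL6A2 and HLA-B and changed no other call among the named genes. Without the filter ELANE, TRAC, NCAM1, COL6A2 and HLA-B were added as well, with DESeq2 COL6A2 and HLA-B, and with all 18 libraries TRAC and COL6A2. Leaving out shNR4A2 replicate 2 added CEBPA, ELANE and AZU1, and leaving out shNR4A2 replicate 3 added COL6A2 and HLA-B. The fit of all 18 libraries lost the calls of PLIN2, CCL2, CDH15, HLA-C, OSM, MYC, LMO2 and SEMA3F. The log2 fold change of HLA-DRA turned to -0.0062 with the block and ran from -0.25 to 0.20 with single libraries left out, and that of HUNK ran from -0.44 to 0.033. Those of NR4A1, NR4A2 and NR4A3 ran from 0.01 to 0.52, from -0.79 to -0.53 and from 2.72 to 3.70. Across alternatives, 73 of 330 recomputed list medians moved by more than 1 SD between replicates and 31 of 330 list counts moved by over 1.5 times. The fold change of NR4A3 rests on few reads, 106 over the 3 shNR4A2 control libraries and 9 over the 3 shNR4A3 control libraries, against 58 over the 3 shNT control libraries. The part of depth in these values was not tested.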
